A study of Rattus norvegicus with 6 samples.

Results

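Gad1, Gad2, Slc32a1, Dlx1, Dlx2, Dlx5, Dlx6 and Lhx6 are the genes by which forebrain neurons that release GABA are commonly recognised. They share a function and were chosen on the comparison of PSNPs (polystyrene nanoplastics) with IR-813, with their values in it already known. Their levels in it are therefore given as a description, with no test. Of these 8 genes, 7 were among the 16876 gene symbols of the deposited count table and 6 were among the 11679 that passed a filter on low counts. Dlx6 was not analysed here, and Lhx6 had too few counts for the filter. The 6 libraries carry the label of rat (Rattus norvegicus) primary microglia, the resident macrophages of the brain. They had been kept for 24 h with PSNPs (3 libraries) or with the near-infrared dye IR-813 (3 libraries). Per the labels' protocols, the cells were shaken off mixed co-cultures grown in medium with serum, and polyadenylated RNA was sequenced. The labels give no dose, age or genetic modification, and no untreated cells were analysed here, so an effect of PSNPs and an effect of IR-813 cannot be told apart. The deposited tables call the IR-813 columns con. Whether replicates stand for separate cultures or animals is not given, so p-values measure the spread between these libraries, which may be technical. RNA-seq was performed to look for what lies behind impaired behaviour and neuronal activity after exposure to PSNPs.

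GABA is the main inhibitory transmitter of the forebrain. It is made from glutamate by the decarboxylases GAD67 and GAD65, encoded by Gad1 and Gad2, and is loaded into synaptic vesicles by the transporter VGAT, encoded by Slc32a1. The DLX homeodomain proteins act in the ventral forebrain progenitors and young neurons from which cortical, hippocampal and olfactory bulb GABAergic neurons arise, and LHX6 acts downstream of NKX2-1 in those of the medial ganglionic eminence. None of these genes defines microglia.

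Markers of interneurons were detected in part in these libraries. Lhx6 had between 2 and 7 counts per library. Among genes that mark mature interneuron classes, Npy (neuropeptide Y) had 0 counts in all 6 libraries, where 3 counts would stand for between 0.134 and 0.159 CPM (read counts brought to a common library size with TMM factors), and Vip (vasoactive intestinal peptide) had 0 or 1. Sst (somatostatin) had between 12 and 33 counts. Other genes of the same list of interneuron subclass markers were well detected, such as Cnr1 with 660 to 1563 counts, Calb1 with 204 to 473 and Elfn1 with 83 to 646, and 24 of the 35 in the table passed the filter. The genes are called GABA and Dlx genes here, by what they encode.

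The libraries held between 19166605 and 22553507 counts. Replicates of a group differed by more than sampling noise in every pair, and PSNPs replicate 3 stood farthest from its group, with correlations of log CPM across genes of 0.974 and 0.971 with replicates 1 and 2, which correlated at 0.995 with each other. The 7 GABA and Dlx genes together took between 2714 and 2790 counts in an IR-813 library and between 376 and 428 in a PSNPs library. Their summed level was between 125 and 129 CPM in the IR-813 libraries and between 19.6 and 22.1 CPM in the PSNPs libraries. In a bulk sample, fewer cells of a type and less RNA per cell cannot be told apart.

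Sequence before the annotated start was looked at for the 3 genes of GABA synthesis and vesicle loading. They were taken because they showed both the smallest and the largest differences among the 6 genes past the filter. RefSeq's table of promoters (assembly GRCr8, 300 bases a gene, 250 of them before the start) matched 5 of the 8 genes, Gad1, Gad2, Slc32a1, Dlx1 and Lhx6. The stretches below run 5′ to 3′ on the plus strand and end before the outermost annotated start of the gene, at chr3:75777202-75777259 for Gad1, chr17:89671468-89671717 for Gad2 and chr3:167686995-167687244 for Slc32a1. The reads were mapped by the authors to another assembly. Capitals mark the motifs that were searched and found.
Gad1: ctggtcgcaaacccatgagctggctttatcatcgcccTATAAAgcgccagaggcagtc
Gad2: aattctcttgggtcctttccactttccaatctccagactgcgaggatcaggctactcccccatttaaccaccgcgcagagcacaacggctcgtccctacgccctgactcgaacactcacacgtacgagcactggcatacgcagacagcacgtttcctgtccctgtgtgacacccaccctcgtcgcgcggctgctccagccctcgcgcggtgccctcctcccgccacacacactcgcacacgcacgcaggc
Slc32a1: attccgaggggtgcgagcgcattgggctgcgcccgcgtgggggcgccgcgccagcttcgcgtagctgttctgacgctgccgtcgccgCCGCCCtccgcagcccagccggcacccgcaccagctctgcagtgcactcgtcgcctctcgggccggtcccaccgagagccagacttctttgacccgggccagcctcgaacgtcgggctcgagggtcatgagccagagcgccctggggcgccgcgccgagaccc
Motifs were searched on both strands. They were the homeodomain core TAATTA, the general E-box CANNTG, and CAGCTG, a form of E-box counted under the general one too. The other motifs were GGGCGG, known as the GC box, the TATA box with the letters TATAAA, and the core of the element bound by the repressor REST, searched as CAGCACC. In the Gad1 stretch the capitals are TATAAA, which 14.2% of the 33469 promoters of the table hold. In the Slc32a1 stretch they are a GGGCGG on the minus strand, held by 33.1% of promoters, and the Gad2 stretch held none of the 6 motifs. Shares of promoters are counted over full windows of 300 bases, longer than the printed stretches (58 bases for Gad1, 250 for Gad2 and Slc32a1). Over the full windows GGGCGG was also found for Gad1, Dlx1 and Lhx6. Over the full windows of the 5 matched genes, TAATTA (5.36% of promoters) and CAGCACC (6.78%) were not found, CANNTG (72.1%) was in the windows of Gad1 and Lhx6, and CAGCTG (15.1%) was in that of Lhx6. The windows were rich in G and C, between 63.7% for Gad2 and 73.7% for Slc32a1 against a median of 51.7% over all promoters. A match is a description of these letters only.

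The gene for GAD67 and the gene for vesicle loading were lower by more than 10-fold with PSNPs. Gad1 had 37.9, 38.8 and 30.3 CPM in the IR-813 libraries and 1.65, 2.23 and 1.98 CPM in the PSNPs libraries. The lowest IR-813 library was 13.6 times the highest PSNPs library. The means were 35.7 ± 4.66 and 1.96 ± 0.288 CPM (SD, n = 3 each), a log2 fold change of −4.19 ± 0.17 (estimate ± SE). Slc32a1 had 3.98, 4.56 and 3.70 CPM with IR-813 and 0.138, 0.106 and 0.157 CPM with PSNPs. The PSNPs values came from 3, 2 and 3 counts, against 89, 98 and 80 counts with IR-813. Over summed counts, Slc32a1 was 30.5-fold higher with IR-813 (exact 95% interval 15.2 to 71.3, which covers counting error only, since PCR copies of 1 molecule cannot be recognised).

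Gad2, the gene of the second GABA-making enzyme, differed much less. It had 5.19, 5.78 and 5.18 CPM with IR-813 and 3.03, 3.24 and 1.77 CPM with PSNPs. The groups did not overlap, but PSNPs replicate 3 lay well below the other PSNPs libraries. The log2 fold change was −1.001 ± 0.230, and −0.78 without PSNPs replicate 3. PSNPs libraries kept 49.8% of the mean level of Gad2, against 5.49% for Gad1 and 3.27% for Slc32a1.

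The 3 Dlx genes past the filter lay between these extremes. Dlx1 was the most abundant of the group, with 58.8, 59.6 and 63.7 CPM with IR-813 and 11.0, 11.6 and 11.3 CPM with PSNPs. Its libraries agreed closely within each group, with a coefficient of variation of 4.28% with IR-813 and 2.60% with PSNPs, and its log2 fold change was −2.43 ± 0.09. Dlx2, its neighbour on chromosome 3, had 11.3, 12.9 and 14.2 CPM with IR-813 and 2.90, 3.66 and 3.13 CPM with PSNPs. Its log2 fold change was −1.98 ± 0.16. Dlx5 had 7.43, 7.27 and 8.37 CPM with IR-813 and 0.781, 1.22 and 1.10 CPM with PSNPs. This was the largest difference of the 3 Dlx genes, at −2.90 ± 0.19 on the log2 scale, from between 17 and 23 counts per PSNPs library. Lhx6 had 7, 6 and 4 counts with IR-813 and 4, 2 and 3 counts with PSNPs, and the ratio of summed counts, 1.73-fold higher with IR-813, had an exact 95% interval from 0.727 to 4.39. A difference in Lhx6 was not detectable at this depth.

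**Figure D1:**
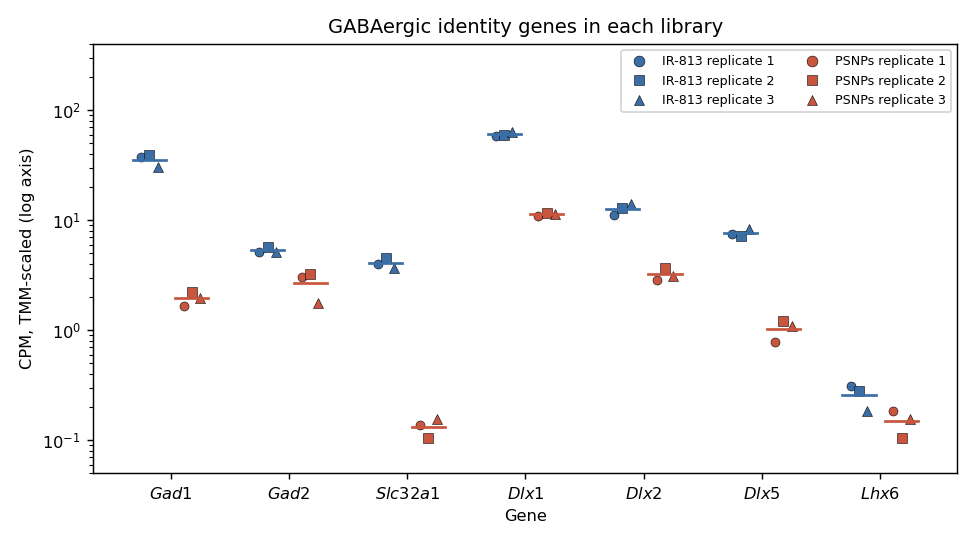
CPM of 7 GABA and Dlx genes in each library (log axis). Points are single libraries, horizontal bars the mean of 3, and the PSNPs points of Gad1, Slc32a1, Dlx1, Dlx2 and Dlx5 lie far below their IR-813 points, while Gad2 lies closer (5.38 ± 0.341 against 2.68 ± 0.793 CPM) and Lhx6 rests on single-digit counts.

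By edgeR's quasi-likelihood test, the 6 genes past the filter were all called lower, from which nothing is read because their values were known when they were picked. Of all 11679 tested genes, 20.1% were called lower and 20.9% higher (41% in either direction) at a Benjamini-Hochberg adjusted p under 0.05. All 3 PSNPs libraries lay below all 3 IR-813 libraries for these 6 genes, as they did for 31.4% of tested genes, and they lay above for 30% of tested genes and for none of the 6. With library sizes alone in place of TMM scaling, 1943 genes were called higher and 2852 lower, against 2439 and 2351. Without IR-813 replicate 1 the counts were 1416 higher and 1571 lower, and without IR-813 replicate 2 they were 1339 and 1473. The median log2 fold change of the 6 genes was −2.66, against −0.01 over all tested genes. From the lowest of 11679, Slc32a1 ranked 16, Gad1 38, Dlx5 131, Dlx1 218, Dlx2 359 and Gad2 1079.

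Ratios between these genes within a library do not depend on how libraries are scaled. Gad1 had 7.29, 6.72 and 5.85 reads per Gad2 read in the IR-813 libraries and 0.545, 0.689 and 1.12 in the PSNPs libraries. Gad1 reads outnumbered Gad2 reads in every IR-813 library, and Gad2 reads outnumbered Gad1 reads in PSNPs replicates 1 and 2. Gad2 had 1.32 ± 0.0694 reads per Slc32a1 read with IR-813 and 21.3 ± 9.60 with PSNPs (SD, n = 3), the latter over 2 or 3 Slc32a1 reads per library. The ratio of Gad1 to Slc32a1 moved less, from 8.73 ± 0.689 to 15.2 ± 5.01. Dlx1 had 4.78 ± 0.380 reads per Dlx2 read with IR-813 and 3.52 ± 0.327 with PSNPs, and Dlx2 had 1.66 ± 0.128 and 3.19 ± 0.454 reads per Dlx5 read. The 3 Dlx genes therefore stayed nearer to each other in proportion than the 2 GAD genes did, and in each of these ratios the groups did not overlap.

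**Figure D2:**
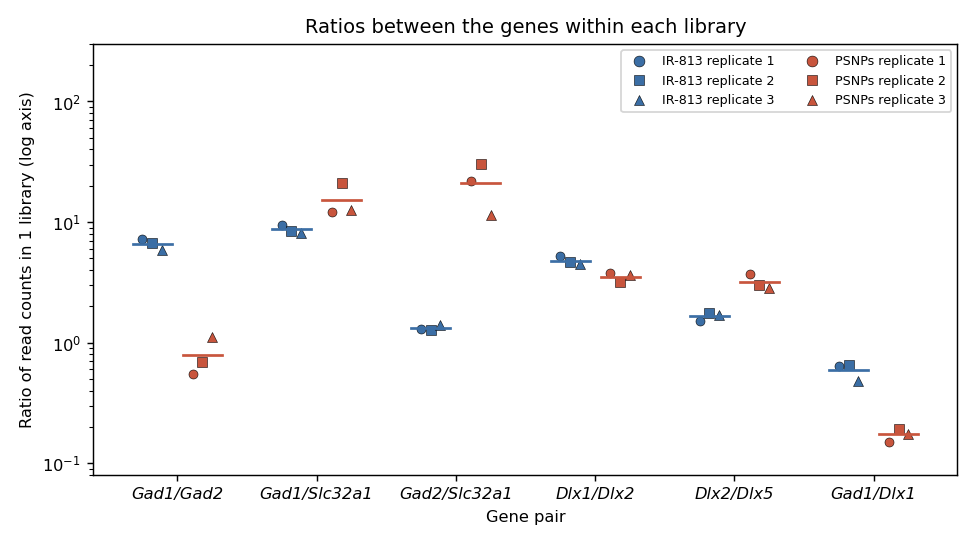
Ratio of read counts of gene pairs within each library (log axis). Points are single libraries and bars the mean of 3. Gad1/Gad2 is 6.62 ± 0.727 with IR-813 and 0.784 ± 0.298 with PSNPs (SD), while Dlx1/Dlx2 is 4.78 and 3.52.

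Levels of different genes were compared on the scale of the deposited log2 values, which behaved as counts divided by a gene factor and a library factor and was used as a scale per length, although its scaling is not stated. After removing the logarithm and the pseudocount of 1, the order with IR-813 was Dlx1 (22.5 ± 0.934), Dlx2 (15.0 ± 1.70), Gad1 (11.3 ± 1.49), Dlx5 (6.09 ± 0.469), Gad2 (2.89 ± 0.185), Slc32a1 (1.77 ± 0.193) and Lhx6 (0.0769 ± 0.0197). No neighbours in this order overlapped between libraries. With PSNPs the order was Dlx1 (4.21 ± 0.145), Dlx2 (3.81 ± 0.451), Gad2 (1.44 ± 0.403), Dlx5 (0.824 ± 0.184), Gad1 (0.623 ± 0.0929), Slc32a1 (0.0585 ± 0.0121) and Lhx6 (0.0442 ± 0.0119). Here the libraries of Dlx1 and Dlx2 overlapped, as did those of Dlx5 and Gad1 and those of Slc32a1 and Lhx6. Gad1 went from the third place to the fifth and Gad2 from the fifth to the third.

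**Figure D3:**
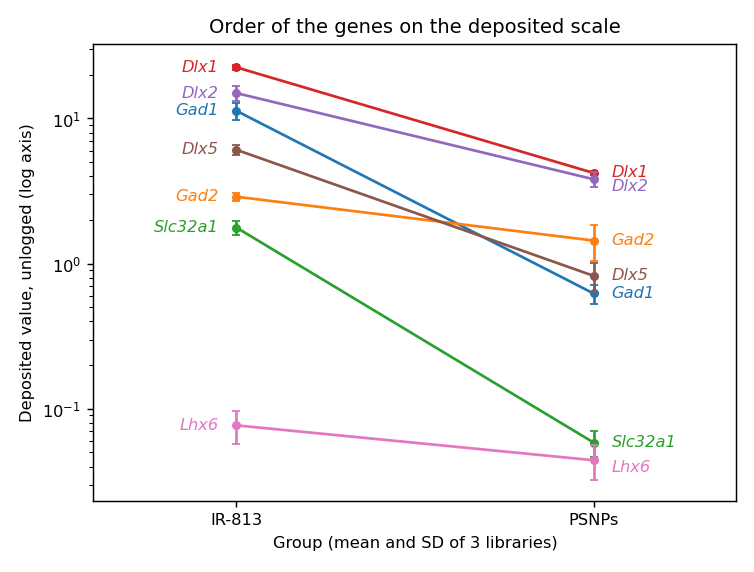
Unlogged deposited values (log axis) of 7 genes with IR-813 (left) and PSNPs (right). Points are means of 3 libraries with SD, and the lines of Gad1 (11.3 to 0.623) and Gad2 (2.89 to 1.44) cross, while Dlx1 and Dlx2 stay on top.

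Within a group, the GABA genes and the Dlx genes did not always share their order of libraries. In the IR-813 group, replicate 3 had the lowest Gad1, Slc32a1 and, by a small margin, Gad2, but the highest Dlx1, Dlx2 and Dlx5. In the PSNPs group, replicate 2 was highest for Gad1, Gad2, Dlx1, Dlx2 and Dlx5, and replicate 1 was lowest for Gad1, Dlx1, Dlx2 and Dlx5. PSNPs replicate 3, which stood apart over all genes, was lowest for Gad2 only.

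By position, Dlx1 and Dlx2 are neighbours in the RefSeq table, as are Dlx5 and Dlx6, with no protein-coding gene between them. Gad1 lies on the same chromosome as Dlx1, with 10 protein-coding genes between them. Of the 12 tested genes nearest to the 8 by position, 3 fell (Apbb1ip, Dync1i1 and Rbm18), Gorasp2 rose and 8 did not pass. Over all tested genes, 20.1% fell and 20.9% rose, so nothing about position is read from these counts. Metap1d and Itga6, which flank the pair Dlx1 and Dlx2, had log2 fold changes of 0.06 ± 0.13 and −0.22 ± 0.18 and did not pass (edgeR adjusted p 0.711 and 0.364). Erich2, next to Gad1, was at 0.38 ± 0.19 (adjusted p 0.157), and Gorasp2, a Golgi stacking gene on its other side, rose by 0.25 ± 0.07 (adjusted p 0.0281). Beside Dlx5 and Dlx6, Sdhaf3 did not pass (0.11 ± 0.29, adjusted p 0.780), whereas Dync1i1, a dynein intermediate chain gene and the nearest tested gene on the other side, fell from 4.77 ± 0.260 to 0.254 ± 0.0675 CPM (adjusted p 9.8e-05). Long non-coding RNA genes overlap the spans of Dlx1, Dlx6 and Lhx6 in RefSeq. Without stated use of strand, their reads cannot be told apart from those of Dlx1 and Lhx6.

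Of 38 other transcription factors of GABAergic neurons and their progenitors, 28 were tested, 9 fell, 2 rose and 17 did not pass, with a median log2 fold change of −0.46. In percent of the list, 32.1% fell and 7.14% rose, against 20.1% and 20.9% of all tested genes. Sp9, a zinc-finger factor of young GABAergic neurons, had 8.05, 9.27 and 9.30 CPM with IR-813 and 1.10, 0.796 and 0.939 CPM with PSNPs (−3.21 ± 0.18, edgeR adjusted p 0.000101). Its groups lay far apart, and Foxp2, a forkhead factor of striatal and other neurons, fell from 3.19 ± 0.198 to 0.136 ± 0.113 CPM (adjusted p 0.000237, with 1 to 5 counts per PSNPs library). Over summed counts Foxp2 was 23.9-fold higher with IR-813 (exact 95% interval 11.9 to 56.0). Etv1, an ETS factor also found in glial progenitors, rose by 1.01 ± 0.11 (adjusted p 0.000718).

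Nkx2-1, the homeobox gene of the medial ganglionic eminence, rose from 0.429 ± 0.0613 to 1.48 ± 0.50 CPM (edgeR adjusted p 0.00707), from between 8 and 10 counts to between 20 and 36 per library. Among the other members that fell were Gsx1, Satb1, Sp8, Maf and Pbx3, of which Maf is also a macrophage factor. Without PSNPs replicate 3 the list held 5 higher and 12 lower genes, with Sox6 and Nr2f2 among those added to the higher ones. The value for Sox6, which had 251 counts in that library and 1668 and 1555 in the others of its group, was 0.23 without it and −0.24 with it.

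Markers of interneuron subclasses went both ways. Of 36 listed, 24 were tested, 11 fell (45.8%) and 7 rose (29.2%), with a median of −0.29. The shares over all tested genes were 20.1% lower and 20.9% higher. Elfn1, a postsynaptic adhesion gene of somatostatin interneurons, had 27.1, 29.1 and 29.9 CPM with IR-813 and 4.14, 4.41 and 4.80 CPM with PSNPs (−2.69 ± 0.12, edgeR adjusted p 5.4e-05). Kcnip1, a potassium channel subunit gene, fell from 5.98 ± 0.583 to 0.839 ± 0.0535 CPM (adjusted p 0.000105). The other members that fell were Calb2, Cck, Htr3a, Adarb2, Erbb4, Nxph1, Synpr, Pdyn and Gria4. Among them, Calb2 encodes calretinin, Cck cholecystokinin and Erbb4 the neuregulin receptor.

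Pnoc, the precursor of nociceptin and a marker of a subset of GABAergic neurons, moved in the opposite direction. It had 7.16, 6.01 and 6.62 CPM with IR-813 and 131, 99.6 and 147.5 CPM with PSNPs (4.25 ± 0.18, adjusted p 5.2e-05). Every PSNPs library was above every IR-813 library by more than 10-fold. Pvalb, the parvalbumin gene, rose from 1.37 ± 0.390 to 4.54 ± 0.422 CPM (adjusted p 0.00153), and Sst was at 1.24 ± 0.298 and 0.919 ± 0.282 CPM and did not pass (adjusted p 0.291). Calb1, Cnr1, Cxcr4, Ackr3 and Penk were the other members that rose.

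Of 19 genes that take up, break down or supply GABA, 17 were tested, 4 rose, 3 fell and 10 did not pass, with a median of −0.06. These shares, 23.5% higher and 17.6% lower, were near those of all tested genes (20.9% and 20.1%). The betaine and GABA carrier gene Slc6a12 rose by 1.36 ± 0.23 on the log2 scale (edgeR adjusted p 0.00412), and Maob, the monoamine oxidase of astrocytes that also takes part in making GABA from putrescine, rose by 1.51 ± 0.12 (adjusted p 0.000213). Abat, the GABA transaminase gene, had 39.5, 41.3 and 46.1 CPM with IR-813 and 38.4, 33.1 and 20.04 CPM with PSNPs and did not pass (adjusted p 0.137). The other genes that rose were Glul and Slc38a3, and Slc38a2 was among those that fell, all of glutamine handling. Without PSNPs replicate 3 there were 6 higher and 5 lower.

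Most tested genes of the receiving side of the inhibitory synapse fell. Of 29 genes for GABA and glycine receptors, their scaffolds and chloride carriers, 21 were tested. Of these, 14 fell (66.7%, against 20.1% of all tested genes), with a median of −1.04. No member rose by edgeR's test, by DESeq2 or by limma, and 0 were higher at an unadjusted p under 0.05. Shisa7, an auxiliary subunit gene of GABA-A receptors, had 19.8, 19.4 and 19.98 CPM with IR-813 and 3.31, 3.29 and 3.39 CPM with PSNPs (−2.56 ± 0.11, adjusted p 5.4e-05). Gabbr2, a subunit of the metabotropic GABA-B receptor, fell from 15.7 ± 2.25 to 4.14 ± 0.535 CPM (adjusted p 0.000304). Gphn, which encodes the scaffold gephyrin, was at 97.8 ± 6.82 and 119 ± 19.4 CPM and did not pass (adjusted p 0.128). Without PSNPs replicate 3, which leaves 1 fewer library in its group, Gphn, Mdga1 and Slc12a2 were called higher, at 0.41, 0.42 and 0.13 on the log2 scale, where Slc12a2 was at −0.06 with all libraries.

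Of 23 listed genes of glutamatergic neurons, 19 were in the table and 10 were tested, of which 3 rose and Nrgn fell, with a median of 0.18. In percent of the tested genes, 30% rose and 10% fell, against 20.9% and 20.1% of all tested genes. The 9 left untested, among them Tbr1, Neurod2, Neurod4 and Neurod6, had at most 18 counts in any library. The median says nothing about them. For Tbr1, Neurod2, Neurod4 and Neurod6 all PSNPs libraries lay below all IR-813 libraries, as for 31.4% of all tested genes. Tbr1 had 11, 9 and 9 counts with IR-813 and 2, 1 and 1 with PSNPs, and Neurod4 had 15, 18 and 9 against 6, 4 and 0. The groups overlapped for Slc17a6, Slc17a7, Slc17a8, Neurod1 and Neurog1. These differences were not tested. Levels of the listed genes differed widely within a group. The vesicular glutamate transporter genes Slc17a7 and Slc17a6 had mean levels of at most 0.133 CPM in either group, whereas Lhx2 had 79.0 ± 5.56 CPM with IR-813. Emx2 rose by 0.82 ± 0.10, Fezf2 by 1.87 ± 0.28 and Lhx2 by 0.54 ± 0.09 on the log2 scale (edgeR adjusted p 0.000937, 0.00252 and 0.00379). Emx2 and Lhx2 are also expressed in cortical progenitors and astrocytes. The lower count was 2 in place of 1 with the replicate number as a block and without PSNPs replicate 3.

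Genes shared by neurons and neuroblasts fell more often than they rose. Of 28 tested, 18 fell (64.3%) and 4 rose (14.3%), with a median of −1.10. The shares over all tested genes were 20.1% lower and 20.9% higher. Celf4, an RNA-binding protein gene, had 30.8, 29.3 and 25.5 CPM with IR-813 and 2.21, 3.03 and 2.77 CPM with PSNPs (edgeR adjusted p 7e-05). The synaptic gene Snap25 fell from 4.98 ± 0.600 to 0.454 ± 0.0348 CPM (adjusted p 0.000101) and the neuronal tubulin gene Tubb3 from 109 ± 5.24 to 32.7 ± 2.78 CPM (adjusted p 0.000101). The members that rose were Nefh, Uchl1, Thy1 and Cd24, and Stmn2, a microtubule regulator of growing axons, stood at 91.5 ± 14.2 and 91.5 ± 15.8 CPM (adjusted p 0.999).

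**Figure D4:**
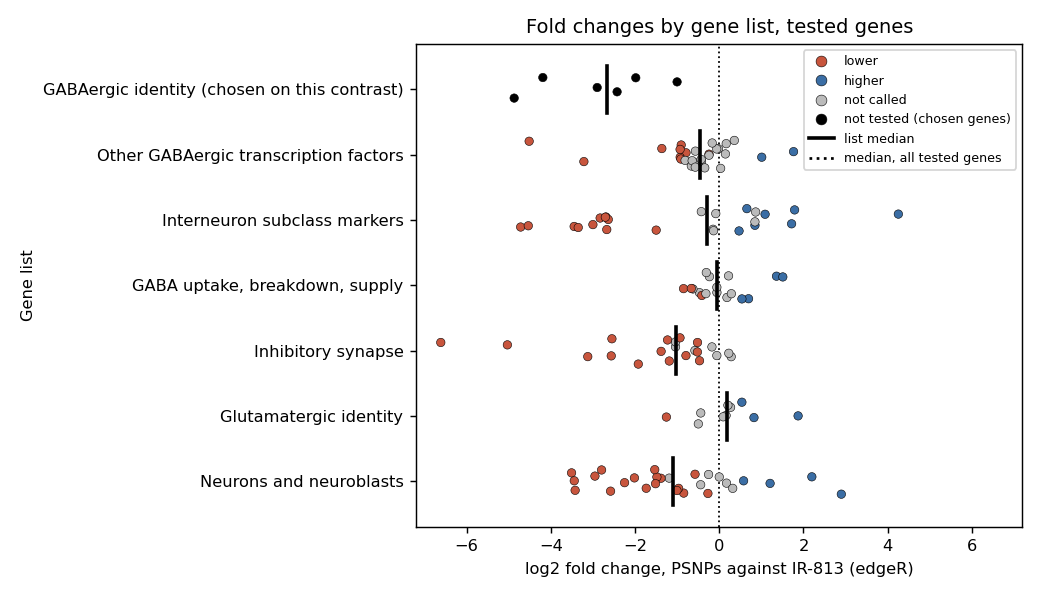
Log2 fold changes (PSNPs against IR-813) of the tested genes of each list, with red lower, blue higher and grey not called by edgeR's test, black the genes chosen on this contrast, thick bars the list medians and the dotted line the median of all tested genes (−0.01). The GABAergic identity genes have a median of −2.66, inhibitory synapse genes of −1.04 and the 10 tested glutamatergic genes of 0.18. The leftmost point, Gabrb2, had 0 counts in the PSNPs libraries, so its fitted value is no bound.

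Markers of the cell types that the cultures could hold also differed between the groups, not all in the same direction. Of all tested genes, 20.1% fell and 20.9% rose. In percent of tested markers, 75% of neuron, 92.3% of oligodendrocyte-lineage and 75% of microglia markers fell. So did 10% of astrocyte, 12.5% of neural progenitor and 57.1% of fibroblast, mural and endothelial markers. Those that rose were 50% of astrocyte, 37.5% of neural progenitor and 7.69% of oligodendrocyte-lineage markers. Of 12 neuron markers, 9 fell and none was at 0 in all libraries. All 12 are also among the genes shared by neurons and neuroblasts above, so they are no further evidence. Nefh, Uchl1, Thy1 and Cd24, which rose in that list, are not among the 12. The summed level of the 12 was between 569 and 595 CPM in the IR-813 libraries and between 231 and 267 CPM in the PSNPs libraries. The 7 GABA and Dlx genes together amounted to 21.9, 21.8 and 21.1 CPM per 100 CPM of neuron markers in the IR-813 libraries and to 7.68, 8.30 and 8.49 in the PSNPs libraries. That sum mixes markers that differed widely, since PSNPs libraries kept between 8.79% and 113% of the IR-813 mean of single neuron markers, with Snap25 at 9.12%, Tubb3 at 30.1% and Stmn2 at 100.03%. The GABA and Dlx genes, at 3.27% (Slc32a1) to 57.4% (Lhx6), lay partly within that range. Of 13 oligodendrocyte-lineage markers, 12 fell and Olig1 rose (sums of 7309 to 8483 and 4513 to 5219 CPM), and of 12 microglia markers 9 fell (1075 to 1465 and 643 to 847 CPM). Of 10 astrocyte markers, 5 rose and 1 fell (6546 to 8361 and 7799 to 8609 CPM), and of 8 neural progenitor markers, 3 rose and 1 fell (8162 to 8381 and 12282 to 14346 CPM). Among 12 fibroblast, mural and endothelial markers, of which 7 were tested and Col1a2 was at 0 in all libraries, 4 fell (128 to 179 and 59.3 to 73.1 CPM). The part of these shifts in the levels of the GABA and Dlx genes was not tested.

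The genes whose pattern over the 6 libraries was most like the mean pattern of the 6 GABA and Dlx genes were sought among 11141 tested genes with at least 1 CPM on average with IR-813. Likeness was the root mean square distance between centred log2 CPM profiles. Hcn4, a pacemaker channel gene, was nearest (0.05), followed by Padi2 (a peptidylarginine deiminase, 0.10), Nol4 (0.10), Elfn1 (0.10), Kcnip1 (0.12) and Tmem130 (0.13). Among the GABA and Dlx genes themselves the distance to their mean ran from 0.15 for Dlx5 and 0.18 for Dlx1 to 0.90 for Gad2. Hcn4 had 2.46, 2.42 and 2.59 CPM with IR-813 and 0.276, 0.318 and 0.261 CPM with PSNPs. Padi2 was more abundant, with 58.6 ± 2.95 CPM in the IR-813 libraries and 9.63 ± 1.21 CPM in the PSNPs libraries. Since these genes were chosen for their pattern, their values are a description, with no test.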

How the data were processed

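RNA-seq of 6 libraries (3 IR-813, 3 PSNPs) was analysed. The authors deposited whole-number read counts per gene symbol and, per library, log2 values, with no scaling named per the file headers. The submitters' processing notes name bcl2fastq and mRatBN7.2. For aligner, counting program, annotation and strand: not given in the sources used here. Groups came from sample titles. Columns were matched through each library's own file.

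Counts were filtered with filterByExpr, normalised by TMM and put through the quasi-likelihood test of edgeR 4.0.16 (R 4.3.3, treatment as the only term), with Benjamini-Hochberg adjustment over all 11679 tested genes and a threshold of 0.05. The script was tested on simulated data. Log CPM used a prior count of 2. Unlogged deposited values were proportional to counts within 0.05 log2 units for 99.7% of values over 10559 genes, and the Spearman correlation across genes, which are not independent replicates, of the gene factor with gene span was 0.506. Alternatives were DESeq2 1.42.0, limma 3.58.1 on the log2 values, other scalings, no filter, a replicate block and leaving out each library. An exact test of 3 against 3 libraries cannot go below 0.1 and was not used. Named genes are the 8 chosen genes, the 3 called genes with the smallest p of each list, partner genes (Abat, Nkx2-1, Sst, Pvalb, Vip and Npy) and the 6 nearest profiles. Neighbouring genes were taken by position. Gphn, Mdga1, Slc12a2, Sox6, Nr2f2, Stmn2, Slc17a6, Slc17a7, Nrgn, Olig1, Col1a2, Gabrb2 and the other called genes of a list fall outside this rule and were chosen once their values had been seen. The same holds for the other untested glutamatergic genes and for Nes, Mki67, Top2a and Pax6. Some genes that the rule names are not reported here. The genes and lists were chosen with earlier results of these data known.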

Additional observations from a re-analysis of the deposited data

How the results depend on the processing

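All 6 tested GABA and Dlx genes stayed lower with PSNPs under all 12 alternatives, with a median log2 fold change between −2.737 and −1.845 (−2.735 to −2.564 with 1 library left out). The value −1.845 is that of limma on the deposited log2 values, where the pseudocount of 1 understates low genes (Slc32a1 −1.39, Gad1 −2.92). With each library left out in turn, 1339 to 3591 genes were called higher and 1473 to 3478 lower. The same ranges were 2 to 5 higher for the other GABAergic transcription factors, 0 to 3 higher for inhibitory synapse genes, 2 to 5 lower for GABA uptake, breakdown and supply, and 1 to 2 lower for glutamatergic genes. That glutamatergic count was also 2 with no low-count filter and with the replicate block. The causes were not tested. Deviations of same-numbered libraries from their group means had correlations of −0.01, 0.01 and 0.12. Those of differently numbered libraries ran from −0.17 to 0.18. With 3 libraries per group, these values cannot exclude a pairing. With the replicate block 2035 genes were higher and 2124 lower, and the median of the GABA and Dlx genes was −2.66. Depth limits genes with single-digit counts in every PSNPs library, among them Lhx6, Slc32a1, Foxp2, Dync1i1, Hcn4, Snap25, Calb2, Cck and Pdyn.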
